A study of Homo sapiens with 18 samples.

Results

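Abundant small RNAs made by RNA polymerase III were followed across OVCAR3-KRAB cells, which are cells of the established ovarian adenocarcinoma line OVCAR3 that carry dCas9-KRAB, a dead Cas9 fused to a repressor domain. The RNAs were RN7SL1, RN7SL2, RN7SK, RMRP and RPPH1, 5 of the 28277 genes listed in the count table. They were chosen by name and by their measured abundance, since they were the 5 genes with the most counts summed over all libraries, so that their high level is the basis of the choice and not a result. Just outside the choice was SNORD3A, the U3 small nucleolar RNA of RNA polymerase II, with 4621292 counts over all libraries against 5313459 for RMRP, the lowest of the 5 chosen. In normoxia the mean share of RPPH1 was below that of SNORD3A with sgCtl (1.29 against 1.45% of counts) and sgXIST7 (0.987 against 1.60%). With sgXIST9 it was above (1.12 against 0.959%), and in hypoxia it was above under each guide. A choice by counts over all libraries favours RNAs high in hypoxia, so the rises of RPPH1 and of the sum are not independent of it.

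There were 18 libraries in 6 groups of 3 replicates. Clonal OVCAR3-KRAB cells held a control guide (sgCtl, directed at a Gal4 promoter) or a guide to the XIST promoter (sgXIST7 or sgXIST9, the XIST KD cells), and each was grown in normoxia or for 24 h in a chamber with 1% oxygen (hypoxia). All groups carried dCas9-KRAB, the guides were introduced by lentivirus, and the number of clones behind the replicates of each guide is not given in the sources used here, so that guide and clone cannot be told apart. P-values therefore measure the spread between these samples.

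Total counts ran from 11794375 to 24906936 per library, and the hypoxia libraries numbered 3 had the lowest total of their groups. By median absolute log2 difference they stood farthest from their group in sgCtl (0.408, next 0.299) and sgXIST9 (0.307, next 0.262). In sgXIST7 the hypoxia library numbered 3 was nearly level with that numbered 1 (0.260 against 0.258). XIST, the targeted RNA, had 4213 to 11209 counts in the sgCtl normoxia libraries, 1 to 5 in sgXIST7 and 650 to 1009 in sgXIST9. Of 10 genes known to be induced by low oxygen, 9 were higher in hypoxia past both thresholds given below in the mean of guides, LDHA by 2.88-fold and CA9 by 78.3-fold, and EGLN3 was not (log2 fold change 0.43). In sgCtl 8 were, as ADM, the gene of adrenomedullin, had a log2 fold change of 0.17 there against 4.53 in sgXIST7 and 3.93 in sgXIST9, and both differences of response were called by edgeR (adjusted p = 5.0e-06 and 3.7e-05). ADM was far lower in normoxia with sgXIST7 and sgXIST9 than with sgCtl (log2 fold change -5.14 and -5.36). In hypoxia it was still lower (-0.78 and -1.60). Of the markers checked, EPCAM had 1787 to 5594 counts, KRT18 1461 to 5542 and KRT8 56 to 779. PAX8 had 18 to 131, WT1 at most 14 and KRT7, MUC16 and CDH1 at most 4, so several of the epithelial and ovarian markers were nearly absent. The blood marker PTPRC had at most 1 count and the endothelial marker PECAM1 at most 8. COL1A1, a fibroblast marker, had 1 to 156, and ACTA2, a smooth muscle actin, reached 8189. The name of the line is from the labels and was not tested here.

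RNA polymerase III transcribes short noncoding RNAs and stops at runs of T in the DNA. RN7SL1 and RN7SL2 both encode 7SL RNA, the scaffold of the signal recognition particle (SRP) that brings ribosomes making secreted and membrane proteins to the endoplasmic reticulum. RN7SK encodes 7SK RNA, which holds the elongation factor P-TEFb in an inactive complex with HEXIM proteins. RPPH1 is the RNA of RNase P, which trims the 5′ end of tRNA precursors, and RMRP is the RNA of RNase MRP, which cuts precursor ribosomal RNA. RNase P and RNase MRP share most of their proteins.

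All 5 genes are single-exon noncoding RNA genes in the build hg38. RN7SL1 is at chr14:49586580-49586878 on the plus strand, inside an intron of RPS29, which runs on the minus strand. RN7SL2 is at chr14:49862551-49862849 and the further copy RN7SL3, which was not chosen, at chr14:49853616-49853914, both on the minus strand. RN7SK is at chr6:52995620-52995951 on the plus strand, RMRP at chr9:35657751-35658018 on the minus strand and RPPH1 at chr14:20343071-20343411 on the minus strand. The 3 copies of 7SL are nearly identical, which limits how far their counts can be told apart. Of 299 bases, RN7SL2 differs from RN7SL1 at 4 and RN7SL3 at 7.

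Of the 75-base windows of RN7SL1, 22.7% occur once in the primary chromosomes of hg38, against 15.6% for RN7SL2, 36.8% for RN7SK and 78.2% for RN7SL3. All windows of RMRP and RPPH1 occur once. The counts of the 7SL copies and of RN7SK thus depend on how reads with several matches were placed, which is not given in the sources used here, and the split between RN7SL1 and RN7SL2 is uncertain.

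RPPH1 and RMRP each start close to a protein-coding gene that runs the other way, and DNA from between the starts is printed because the paired genes are compared further on. RPPH1 starts 202 bases from PARP2, an enzyme of DNA repair, and RMRP starts 271 bases from CCDC107. The stretches are from the RefSeq promoter table (GRCh38.p14), chr14:20343412-20343613 and chr9:35658042-35658289, both written on the plus strand, so that the member lies to the left and its neighbour to the right. The first holds all 202 bases between the starts and the second 248 of 271, without the 23 bases next to RMRP, which lie outside the window of the table. Capitals mark TATAA and ATGCAAAT, the TATA and octamer letters known from promoters of this class, and ACGTG, the core letters bound by hypoxia-inducible factors, on either strand.
RPPH1_to_PARP2: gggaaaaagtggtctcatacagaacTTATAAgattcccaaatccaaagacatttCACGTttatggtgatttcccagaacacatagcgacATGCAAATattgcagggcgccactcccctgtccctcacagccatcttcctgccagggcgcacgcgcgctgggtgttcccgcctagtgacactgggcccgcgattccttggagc
RMRP_to_CCDC107: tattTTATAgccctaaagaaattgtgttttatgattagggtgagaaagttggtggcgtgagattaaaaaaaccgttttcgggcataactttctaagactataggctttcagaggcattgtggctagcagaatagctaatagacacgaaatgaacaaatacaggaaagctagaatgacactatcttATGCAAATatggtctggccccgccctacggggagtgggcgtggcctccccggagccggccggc

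TATAA lay 26 to 31 bases before the 5′ end of RPPH1, where matches on both strands overlap, and 28 to 32 bases before that of RMRP. ATGCAAAT lay 90 to 97 bases before RPPH1 and 209 to 216 bases before RMRP. ACGTG had 1 match before RPPH1, 55 to 59 bases from it, and 0 in the window next to RMRP. The related letters GCGTG had 1 match in the 300-base window at PARP2 and 4 in that at CCDC107. Of 35116 RefSeq promoter windows of 300 bases, 20.4% held TATAA, 1.77% ATGCAAAT, 21.4% ACGTG and 36.5% GCGTG on either strand. These are matches of letters, and binding was not measured.

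In normoxia, the 5 RNAs together took 12.2% ± 1.49 (SD, n = 3) of all counts in sgCtl, 11.6% ± 2.15 in sgXIST7 and 13.8% ± 0.0743 in sgXIST9. In hypoxia they took 18.4% ± 1.32, 16.9% ± 1.52 and 18.2% ± 3.29. In each guide, the lowest hypoxia library lay above the highest normoxia library. RN7SL1 ranked first and RN7SL2 second by counts in all 18 libraries. RN7SK ranked between 3 and 4, RMRP between 4 and 6 and RPPH1 between 3 and 7. The lowest count of a member in any library was 129852, for which counting error alone is 0.278%, far below the spread between replicates. Counts are relative within a library, and RNA per cell was not measured, so that, as in other bulk samples, fewer cells of a type and less RNA per cell cannot be told apart.

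**Figure D1:**
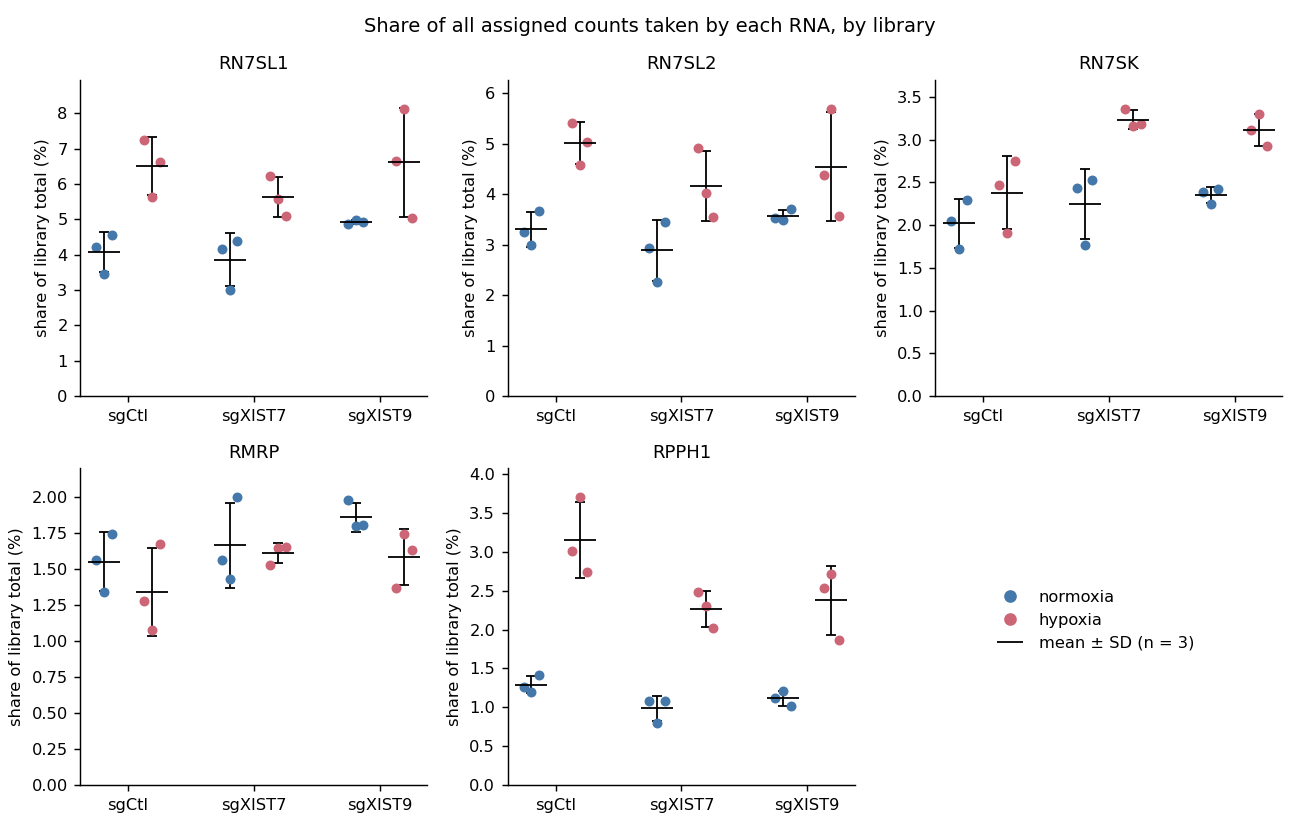
Share of all counts of a library (%, vertical axes from 0, a scale of its own for each RNA) taken by each of the 5 RNAs, for each guide in normoxia (blue) and hypoxia (red). Points are libraries and bars the mean ± SD of 3. The RPPH1 points of hypoxia, from 1.87% upward, lie above all normoxia points, which reach 1.42%, whereas the RMRP points overlap in sgCtl and sgXIST7.

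Levels between genes were compared per length, as TPM (counts divided by gene length and scaled to a fixed sum). In sgCtl normoxia, RN7SL1 had 166470 ± 10454 TPM, RN7SL2 135115 ± 5638, RN7SK 74327 ± 5097, RMRP 70505 ± 4098 and RPPH1 46416 ± 1757 (SD, n = 3). The ranges of RN7SK and RMRP overlapped and those of the other neighbours in this order did not. In sgCtl hypoxia, the order was RN7SL1 with 219741 ± 15603, RN7SL2 with 169875 ± 5265, RPPH1 with 94603 ± 20555, RN7SK with 72302 ± 9772 and RMRP with 50570 ± 9919. RPPH1 thus passed from the lowest to the third level, although its range overlapped that of RN7SK. As TPM share a fixed sum, a rise of abundant RNAs lowers the others, so TPM are read between genes of one group. For example, RMRP in sgCtl was at least 66778 TPM in normoxia and at most 61908 in hypoxia. Its shares of counts overlapped, so this is not read as a fall of RMRP. RPPH1 was also the lowest of the 5 in normoxia with sgXIST7 (35893 ± 2241 TPM) and with sgXIST9 (38055 ± 3374). In hypoxia it had 68867 ± 3249 with sgXIST7, where RN7SK had 101085 ± 4044 and RMRP 62397 ± 5931, and its range overlapped that of RMRP.

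RPPH1 was the member with the clearest difference between normoxia and hypoxia. It took 1.27, 1.20 and 1.42% of counts in the sgCtl normoxia libraries and 3.01, 3.71 and 2.75% in hypoxia. In sgXIST7 it took 1.08, 0.804 and 1.08% in normoxia and 2.48, 2.30 and 2.02% in hypoxia. In sgXIST9 it took 1.12, 1.21 and 1.02% in normoxia and 2.54, 2.72 and 1.87% in hypoxia. The groups did not overlap under any guide, and the lowest hypoxia library was one of those numbered 3. By edgeR's quasi-likelihood test with Benjamini-Hochberg adjustment over 14938 genes, a gene was called where the adjusted p was under 0.01 and the log2 fold change was past 1 in either direction. RPPH1 rose in hypoxia by a log2 fold change of 1.36 ± 0.16 (SE) in sgCtl (adjusted p = 4.1e-06), 1.43 ± 0.17 in sgXIST7 (adjusted p = 1.4e-06) and 1.15 ± 0.16 in sgXIST9 (adjusted p = 1.7e-05). Averaged over guides it rose 2.48-fold.

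RPPH1 was the 1 of 5 members called in hypoxia, in each guide and over the guides together. Of all genes tested, 19.7% were called in sgCtl, 27.3% in sgXIST7, 23.3% in sgXIST9 and 25.3% in the mean of guides, so that 1 of 5 members is near the background share. At an adjusted p under 0.05 without a fold limit, 3 members passed in sgCtl, 4 in sgXIST7, 3 in sgXIST9 and 4 over the guides, where 51.4%, 59%, 55.3% and 72.2% of all genes passed. In the mean of guides, 1774 of 14938 genes had a higher log2 fold change than RPPH1. The exact permutation test of its share, with oxygen labels permuted within guides, gave p = 0.00025 (two-sided), the smallest that 8000 arrangements allow, whereas 3 libraries against 3 cannot give a p below 0.1.

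RN7SL1 and RN7SL2, the 7SL copies, were higher in hypoxia but did not pass the fold threshold. RN7SL1 took 4.21, 3.46 and 4.57% of counts in the sgCtl normoxia libraries and 7.25, 5.62 and 6.61% in hypoxia. In sgXIST7 its shares were 4.16, 2.996 and 4.40% in normoxia and 6.22, 5.58 and 5.10% in hypoxia. In sgXIST9 they were 4.86, 4.99 and 4.92% in normoxia and 6.64, 8.13 and 5.05% in hypoxia. The groups did not overlap under any guide, but the sgXIST9 hypoxia library numbered 3 was only just above the normoxia libraries. The log2 fold change of RN7SL1 was 0.75 ± 0.19 in sgCtl, 0.77 ± 0.19 in sgXIST7 and 0.49 ± 0.19 in sgXIST9, with adjusted p of 0.0035, 0.0022 and 0.037 by edgeR. Leaving out single libraries gave 0.30 to 0.65 in sgXIST9 (adjusted p from 0.0091 to 0.21), the lowest without the hypoxia library numbered 2. Over the guides it was 0.67 ± 0.11 (adjusted p = 3.2e-05), and the exact permutation test of the share gave p = 0.00025.

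RN7SL2 followed RN7SL1 closely. It took 3.25, 2.99 and 3.67% of counts in sgCtl normoxia and 5.42, 4.59 and 5.04% in hypoxia. With sgXIST7 it took 2.94, 2.26 and 3.46% in normoxia and 4.92, 4.03 and 3.55% in hypoxia, and neither guide's groups overlapped. Its shares in sgXIST9 were 3.53, 3.49 and 3.70% in normoxia and 4.38, 5.70 and 3.56% in hypoxia, where the groups overlapped through the library numbered 3. Its log2 fold change was 0.68 ± 0.19 in sgCtl, 0.75 ± 0.19 in sgXIST7 and 0.41 ± 0.19 in sgXIST9 (adjusted p = 0.0061, 0.0024 and 0.071 by edgeR), and 0.61 ± 0.11 over the guides. Without single libraries the sgXIST9 value ran from 0.21 to 0.56 (adjusted p from 0.021 to 0.38), the lowest again without the hypoxia library numbered 2. The exact permutation test of its share over guides gave p = 0.00075.

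The ratio of RN7SL1 to RN7SL2 counts within a library does not depend on scaling. It was 1.29, 1.16 and 1.24 in sgCtl normoxia, 1.34, 1.23 and 1.31 in sgCtl hypoxia, 1.41, 1.33 and 1.27 in sgXIST7 normoxia and 1.26, 1.39 and 1.44 in sgXIST7 hypoxia. In sgXIST9 it was 1.38, 1.43 and 1.33 in normoxia and 1.51, 1.43 and 1.42 in hypoxia. Hypoxia and normoxia overlapped under each guide, and the log2 difference over the guides was 0.06 (exact permutation test, p = 0.098, two-sided). The sgXIST9 libraries were above the sgCtl libraries without overlap in normoxia and in hypoxia, by 0.16 and 0.17 on the log2 scale, each with an exact p of 0.1, the smallest possible.

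RN7SK, the P-TEFb scaffold, was higher in hypoxia without overlap with both XIST guides and with overlap in sgCtl. It took 2.05, 1.72 and 2.30% of counts in sgCtl normoxia and 2.47, 1.91 and 2.75% in sgCtl hypoxia, and these groups overlapped. In sgXIST7 the shares were 2.43, 1.77 and 2.52% in normoxia and 3.36, 3.15 and 3.18% in hypoxia, and in sgXIST9 2.39, 2.24 and 2.42% against 3.12, 3.30 and 2.92%, both without overlap. The log2 fold change was 0.32 ± 0.17 in sgCtl, 0.76 ± 0.18 in sgXIST7 and 0.47 ± 0.18 in sgXIST9 (adjusted p = 0.14, 0.0014 and 0.031 by edgeR). Over the guides it was 0.51 ± 0.10 (adjusted p = 0.00021), and the exact permutation test of the share gave p = 0.00075. In sgCtl it ran from 0.15 without the hypoxia library numbered 3 to 0.48 without that numbered 2 (adjusted p = 0.48 and 0.032), and in sgXIST9 the adjusted p was at most 0.093 without single libraries. The difference of the sgXIST7 response from the sgCtl response was 0.44 ± 0.25 (adjusted p = 0.27) and that of sgXIST9 was 0.15 ± 0.25 (adjusted p = 0.77), so a difference in the response between guides was not shown.

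RMRP did not follow the others. It took 1.56, 1.34 and 1.74% of counts in sgCtl normoxia and 1.28, 1.07 and 1.67% in hypoxia. The shares were 1.56, 1.43 and 1.996% against 1.53, 1.64 and 1.65% in sgXIST7, and 1.97, 1.80 and 1.80% against 1.36, 1.74 and 1.63% in sgXIST9, where all hypoxia libraries were below those of normoxia. Its log2 fold change was -0.12 ± 0.19 in sgCtl, 0.19 ± 0.19 in sgXIST7 and -0.17 ± 0.19 in sgXIST9, with adjusted p of 0.63, 0.42 and 0.47. Over the guides it was -0.03 ± 0.11, and its sign changed with the scaling, to 0.01 with upper-quartile factors. The exact permutation test of the share gave p = 0.093.

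**Figure D2:**
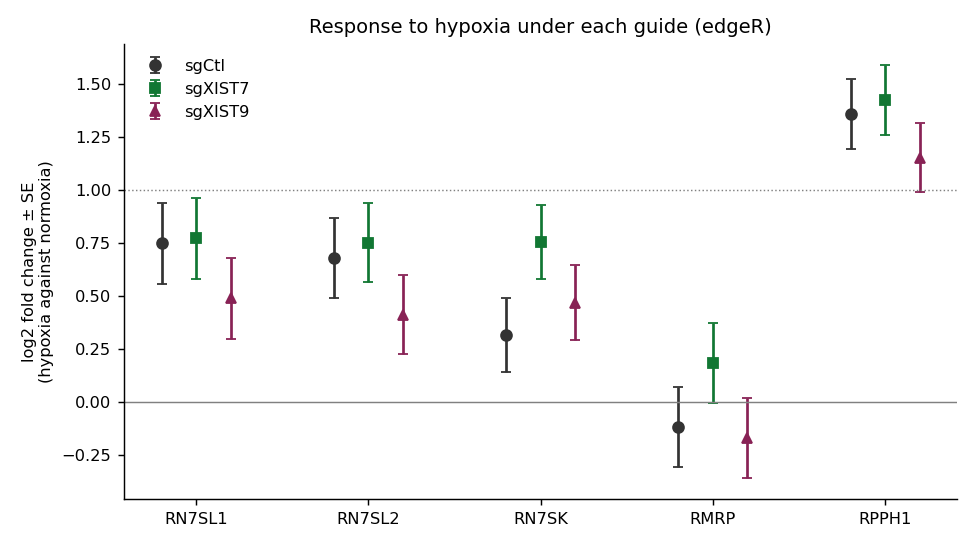
Log2 fold change of each RNA in hypoxia against normoxia under each guide, with its SE (edgeR, 3 libraries against 3, circles sgCtl, squares sgXIST7, triangles sgXIST9). The dotted line is the fold threshold of 1, which RPPH1 passes under each guide with values from 1.15 to 1.43, and RMRP lies on both sides of 0.

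The unequal course of RPPH1 and RMRP, the RNAs of enzymes that share proteins, was also read within each library. This ratio was chosen after the values were seen, so no p-value is given for it. As counts were not divided by length, it is read only between libraries. In sgCtl it was 0.810, 0.896 and 0.812 in normoxia and 2.36, 3.45 and 1.64 in hypoxia. In sgXIST7 it was 0.690, 0.564 and 0.541 in normoxia and 1.63, 1.40 and 1.22 in hypoxia. In sgXIST9 it was 0.565, 0.676 and 0.566 in normoxia and 1.86, 1.56 and 1.15 in hypoxia. All 9 hypoxia libraries were above all 9 normoxia libraries, and the mean rise was 2.83-fold in sgCtl, 2.37-fold in sgXIST7 and 2.49-fold in sgXIST9. In normoxia, the libraries of both XIST guides lay below all sgCtl libraries.

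**Figure D3:**
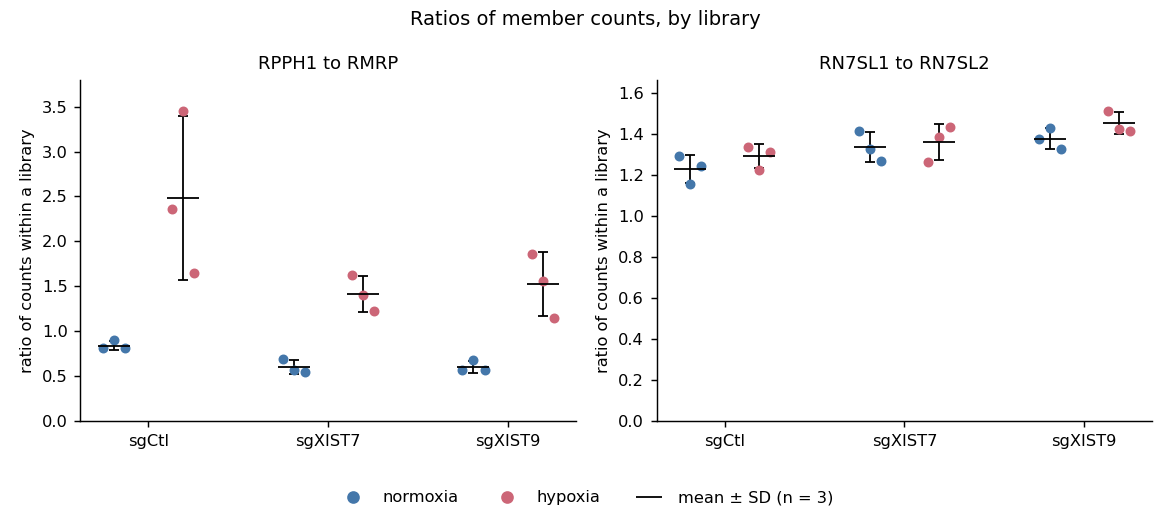
Ratio of counts within each library (vertical axes from 0) for RPPH1 to RMRP and for RN7SL1 to RN7SL2, by guide in normoxia (blue) and hypoxia (red), with the mean ± SD of 3 libraries. The RPPH1 to RMRP ratio is between 0.541 and 0.896 in normoxia and between 1.15 and 3.45 in hypoxia, and the RN7SL1 to RN7SL2 ratio overlaps between the oxygen conditions under each guide.

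XIST KD was compared with sgCtl within each oxygen condition, with the same sgCtl libraries in both comparisons. None of the 5 members was called in normoxia with sgXIST7 or sgXIST9, where 7.76% and 7.7% of all genes were called, nor in hypoxia, where 14% and 9.53% were. At an unadjusted p under 0.05, 1 and 0 members passed in normoxia and 2 and 2 in hypoxia by edgeR, where 32.4%, 32.3%, 50.9% and 40.2% of all genes passed, and DESeq2 called 0 as well. At an adjusted p under 0.05 without a fold limit, 1 member passed with sgXIST7 in hypoxia, against 42.3% of all genes. The largest difference was that of RN7SK in hypoxia, where the sgXIST7 libraries, from 3.15 to 3.36% of counts, and the sgXIST9 libraries, from 2.92 to 3.30%, lay above the sgCtl libraries, which reached 2.75%. Its log2 fold change was 0.60 ± 0.18 with sgXIST7 (adjusted p = 0.0116) and 0.40 ± 0.18 with sgXIST9 (adjusted p = 0.0997). Without single libraries it ran from 0.44 to 0.77 and from 0.24 to 0.56, both lowest without the sgCtl hypoxia library numbered 2 (adjusted p = 0.067 and 0.38).

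RPPH1 was fitted lower with both guides, but no difference was called or had an adjusted p under 0.05. In normoxia its log2 fold change was -0.38 ± 0.16 with sgXIST7 and -0.18 ± 0.16 with sgXIST9 (adjusted p = 0.11 and 0.48 by edgeR), and in hypoxia -0.31 ± 0.16 and -0.39 ± 0.16 (adjusted p = 0.13 and 0.082). Its share in the sgXIST7 libraries was below that in all sgCtl libraries in both conditions, and in the sgXIST9 libraries in hypoxia. The other values of the members in these comparisons were between -0.18 and 0.41. In the differences of the hypoxia response between guides, where 1.52% (sgXIST7) and 1.01% (sgXIST9) of genes were called, 0 of 5 members were called by edgeR or DESeq2 and 0 had an unadjusted p under 0.05 by edgeR, against 26.7% and 21.5% of all genes.

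RN7SL3, the third 7SL copy and the listed gene next to RN7SL2 at a distance of 8636 bases, was higher with both XIST guides, for which the chosen copies were not called. It had 2664 to 4552 counts in the sgCtl normoxia libraries, 13423 to 23506 in sgXIST7 and 41007 to 56973 in sgXIST9. Normalized by TMM, these were 305, 206 and 231 CPM (counts scaled to a fixed library total) in sgCtl, 1016, 745 and 888 in sgXIST7 and 2332, 3025 and 2394 in sgXIST9. The 3 groups did not overlap. RN7SL3 was 3.57-fold higher with sgXIST7 (log2 fold change 1.84 ± 0.24, adjusted p = 2.8e-05 by edgeR) and 10.4-fold higher with sgXIST9 (3.38 ± 0.26, adjusted p = 4.8e-08). In hypoxia it was 3.31-fold and 7.37-fold higher. It took 0.353% ± 0.0692 (SD, n = 3) of the summed counts of the 3 copies in sgCtl normoxia and 3.04% ± 0.439 in sgXIST9, so that the sum moved little with it. The sum was 7.41% ± 0.894 of all counts in sgCtl normoxia and 11.6% ± 1.24 in hypoxia, 6.83% ± 1.34 and 9.94% ± 1.30 in sgXIST7, and 8.77% ± 0.128 and 11.5% ± 2.73 in sgXIST9. How the placing of shared reads bears on RN7SL3 was not tested.

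The neighbours of the members were compared next. PARP2, which starts 202 bases from RPPH1, fell over the guides while RPPH1 rose. It had 63.0, 58.0 and 59.2 CPM in sgCtl normoxia and 33.5, 39.0 and 34.9 in hypoxia, and with sgXIST9 57.6, 58.2 and 57.0 against 21.5, 19.8 and 16.02. Over the guides its log2 fold change was -1.30 ± 0.06 (adjusted p = 1.1e-11 by edgeR), or 0.406 of the normoxia level, and in sgCtl alone it was not called (log2 fold change -0.74). The response differed from that of sgCtl by -0.83 with sgXIST7 and -0.85 with sgXIST9 (adjusted p = 0.00497 and 0.00501), short of the fold threshold. CCDC107, which starts 271 bases from RMRP, rose while RMRP was not called. It had 12.1, 10.7 and 11.4 CPM in sgCtl normoxia and 32.2, 27.9 and 31.9 in hypoxia, and its log2 fold change over the guides was 1.66 ± 0.13 (adjusted p = 4.0e-09). No PARP2 or CCDC107 library of hypoxia overlapped those of normoxia under the same guide.

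Of the other neighbours, CILK1, a kinase gene on the upper side of RN7SK, rose in the mean of guides (log2 fold change 1.25 ± 0.10) and LRR1 on the upper side of RN7SL1 fell (-1.62 ± 0.09). CILK1 was not called in sgCtl (0.49) and was called in sgXIST7 (2.07) and sgXIST9 (1.18), and the sgXIST7 response was called as different from that of sgCtl (1.58 ± 0.24, adjusted p = 0.0015 by edgeR). In the mean of guides, GSTA4, which starts 335 bases from RN7SK and runs the other way, had a log2 fold change of -0.93 ± 0.19, CCNB1IP1 beside RPPH1 -0.75 ± 0.09 and ARF6 beside RN7SL2 -0.21 ± 0.08. The mean hides unequal values for ARF6, which had -0.73 in sgCtl and 0.32 in sgXIST7, a difference of response that was called (1.05 ± 0.19, adjusted p = 0.0047), and GSTA4 was called in sgCtl alone (-1.64 ± 0.34, adjusted p = 0.00065). RPS29, the ribosomal protein gene around RN7SL1, had 0.11 ± 0.10 (adjusted p = 0.37). LINC00648 and SIT1 had at most 3 counts in all libraries together and were not tested.

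**Figure D4:**
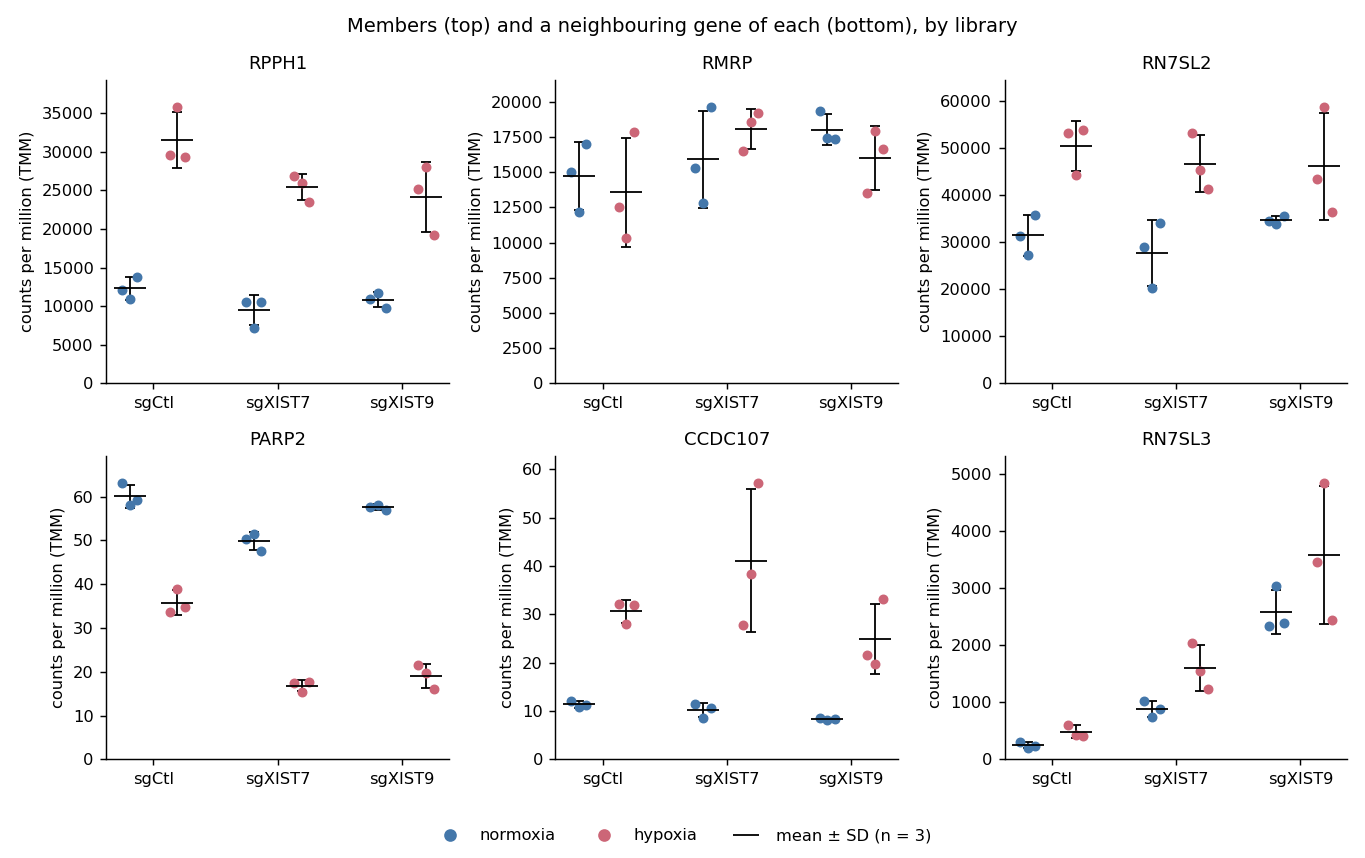
TMM-normalized CPM (vertical axes from 0, each with its own scale) of RPPH1, RMRP and RN7SL2 in the top row and of PARP2, CCDC107 and RN7SL3, a neighbouring gene of each, in the bottom row, by guide in normoxia (blue) and hypoxia (red), with the mean ± SD of 3 libraries. PARP2 is lower in hypoxia where RPPH1 is higher, CCDC107 is higher where RMRP overlaps under each guide, and RN7SL3 is lowest in sgCtl and highest in sgXIST9.

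The mRNAs of the proteins that bind the members were compared over the guides, with lists chosen when earlier results of these data were known. In this comparison, 25.3% of all genes tested were called. Among the proteins of RNase P and RNase MRP, 10 of 11 were tested, of which 1 rose, 1 fell and 8 were not called, with a median log2 fold change of -0.32 against 0.04 over all genes tested. POP1, the largest protein shared by both enzymes, fell from 59.6, 61.2 and 71.6 CPM to 23.4, 29.9 and 20.5 in sgCtl. Its log2 fold change over the guides was -1.92 ± 0.11 (adjusted p = 7.8e-11 by edgeR), without overlap under any guide. RPP25L rose, with a log2 fold change of 1.01 ± 0.08 (adjusted p = 9.1e-09). POP7 had -0.96 ± 0.13 and RPP40 -0.89 ± 0.12, just short of the fold threshold. With library totals in place of TMM, no protein of this list was called higher and 3 were called lower.

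Among the 8 proteins of the SRP and its receptor, which work with 7SL, SRPRA, the receptor subunit that meets the SRP, fell (log2 fold change -1.04 ± 0.08, adjusted p = 7.2e-09) and 7 were not called, with a median of -0.01. The share called over all genes tested was 25.3%. SRP72 had -0.82 ± 0.08 and SRP14, which binds the Alu end of 7SL, 0.51 ± 0.07. Of the 7 proteins of the 7SK complex and P-TEFb, 0 were called by edgeR, 6 had an unadjusted p under 0.05, as had 74% of all genes, and the median was 0.52. HEXIM1, the P-TEFb inhibitor, had 107, 108 and 105 CPM in sgCtl normoxia and 185, 189 and 150 in hypoxia, with a log2 fold change over the guides of 0.88 ± 0.10 (adjusted p = 3.4e-07). HEXIM2 had 0.74 ± 0.10, MEPCE, which caps 7SK, 0.66 ± 0.10, and LARP7, which binds its 3′ end, -0.57 ± 0.08.

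Of 18 subunits of RNA polymerase III, POLR3K fell (log2 fold change -1.52 ± 0.19, adjusted p = 1.4e-06) and 17 were not called, with a median of -0.19. Of 20 transcription factors and regulators of this polymerase, SNAPC3, a subunit of the complex that binds the promoters of this class, rose (1.59 ± 0.16, adjusted p = 6.9e-08), SNAPC4, the DNA-binding subunit of the same complex, fell (-1.07 ± 0.08, adjusted p = 4.5e-09) and 18 were not called, with a median of -0.24. Beside these lists, 25.3% of all genes tested were called. MAF1, a repressor of RNA polymerase III, had 0.51 ± 0.06 (adjusted p = 3.6e-07), and BRF2, a factor for promoters with a TATA element before the gene, -0.65 ± 0.10. In normoxia, none of the genes of these 5 lists was called with sgXIST7 or sgXIST9 by edgeR, where 7.76% and 7.7% of all genes were called. An unadjusted p under 0.05 was reached by 17 and 14 of 63, against 32.4% and 32.3% of all genes. In hypoxia, 3 were called with sgXIST7 and 0 with sgXIST9, where 14% and 9.53% of all genes were called. An unadjusted p under 0.05 was reached by 35 and 16, against 50.9% and 40.2% of all genes. The 3 called, named after their values were seen, were POP1 (log2 fold change -1.01 ± 0.19, adjusted p = 0.00056) and POP7 (-1.03 ± 0.23, adjusted p = 0.0017), which were lower, and SNAPC1, a further subunit of the SNAPC complex, which was higher (1.08 ± 0.13, adjusted p = 5.7e-06). All 10 tested proteins of RNase P and RNase MRP were fitted lower with sgXIST7 in hypoxia, as were 7648 of 14938 genes tested. Of the 10, 6 had an adjusted p under 0.05, against 42.3% of all genes, and the median was -0.65 against -0.02. With sgXIST9 in hypoxia, 8 of the 10 were fitted lower, 0 had an adjusted p under 0.05 and the median was -0.29. The list was picked for mention here with these results in view.

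**Figure D5:**
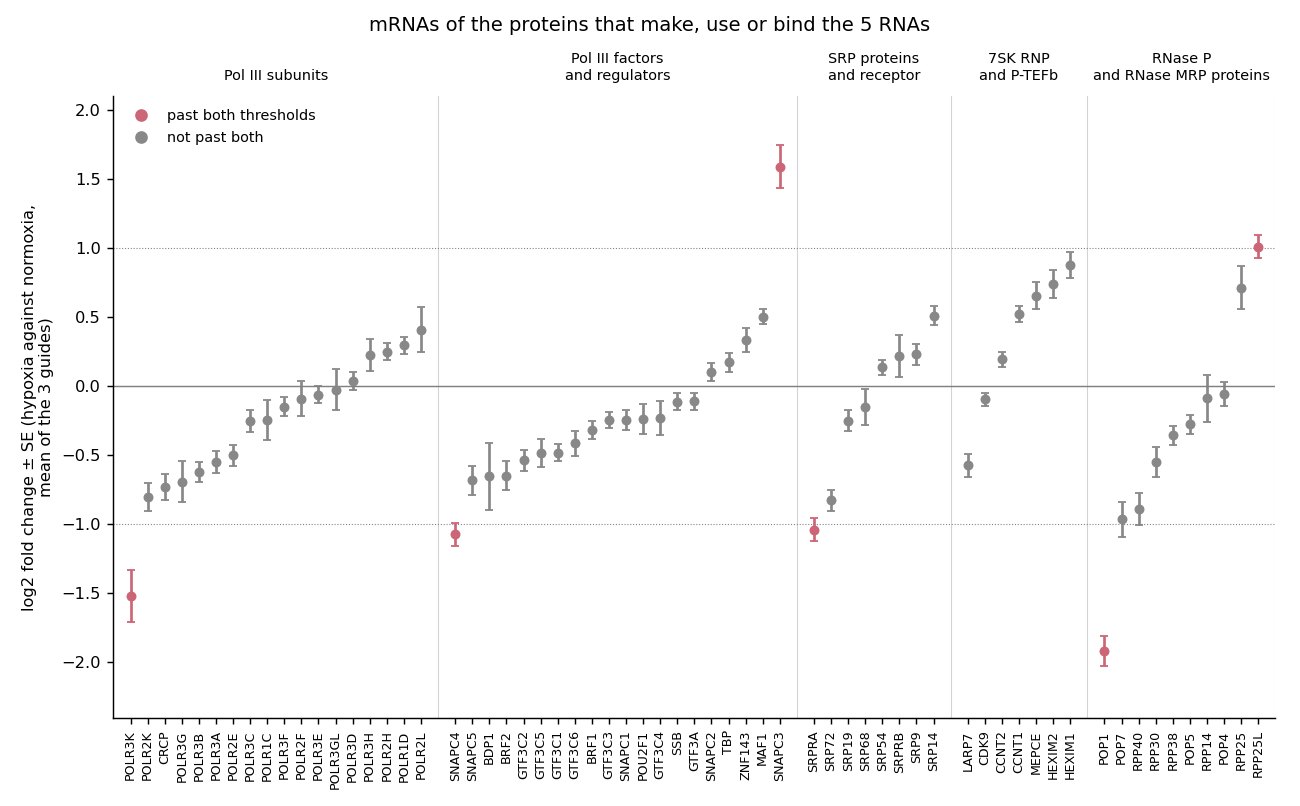
Log2 fold change ± SE in hypoxia against normoxia, averaged over the 3 guides (edgeR), of each tested gene in the 5 protein lists, sorted within its list, with genes past both thresholds in red. POP1, POLR3K, SNAPC4 and SRPRA lie below -1, SNAPC3 and RPP25L above 1, and all genes of the 7SK list lie between -0.57 and 0.88.

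The rest of the short RNAs gave the setting in which the members differed. Of 61 listed transcripts of RNA polymerase III that are no members, 18 had any count and 7 were tested, of which BCYRN1 fell and 0 rose. Over all genes tested, 25.3% were called. BCYRN1, a neuronal-type RNA with an Alu-like domain also found in tumors, whose reads may match other Alu copies, had 27.9, 24.8 and 30.7 CPM in sgCtl normoxia and 2.37, 5.16 and 5.31 in hypoxia. Its log2 fold change over the guides was -2.19 ± 0.17 (adjusted p = 4.3e-09 by edgeR), opposite in sign to RPPH1 and the 7SL copies. It was also lower in normoxia with sgXIST7 (-2.30 ± 0.28, adjusted p = 1.2e-05) and with sgXIST9 (-1.06 ± 0.27, adjusted p = 0.0085). RNY1, the transcript of this list with the most counts, had 0.39 ± 0.12 in hypoxia, VTRNA1-3 -0.80 ± 0.25, RNY3 0.23 ± 0.21 and RNU6ATAC -0.02 ± 0.22.

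Of 303 tested short RNAs made by RNA polymerase II, 18 rose and 61 fell in hypoxia over the guides. Of all 14938 genes tested, 2335 rose and 1440 fell, which is 25.3% called. The median of these short RNAs was -0.36. The median was -0.175 with DESeq2, which used no filter on low counts, and -0.476 with library totals. SNORD3A, the most abundant, had 0.22 ± 0.15 (adjusted p = 0.20), SCARNA2 rose (1.36 ± 0.11), and SCARNA7 had 0.86 ± 0.10, SNORA73A 0.67 ± 0.10, SCARNA10 0.64 ± 0.13 and SNORA73B 0.56 ± 0.10. Counts assigned to the listed ribosomal RNA genes, of which 4 of 20 had any, were at most 0.00967% in any library. As the placing of reads with several matches is not given, this does not measure the ribosomal RNA left after depletion.

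Finally, the course of the members over the 18 libraries was compared, as a description in which all values share the library and its scaling. RN7SL1 and RN7SL2 had a Pearson correlation of log2 CPM of 0.97, RN7SL2 and RPPH1 of 0.89 and RMRP and RPPH1 of -0.12. With group means removed, RN7SK and RMRP were at 0.86 and RMRP and RPPH1 at 0.20. Among 10706 genes with a mean of at least 100 counts, those most like RN7SL1 were SDF2, CIAO2B and CREBZF (0.95, 0.95 and 0.93), those most like RN7SL2 SDF2, PPID and SUPT7L (0.96, 0.95 and 0.91) and those most like RPPH1 RETREG2, EIF4A2 and CLK4 (each 0.98). For RN7SK they were RPLP0, MGST3 and C1orf43 (0.95, 0.94 and 0.94) and for RMRP BLOC1S4, TIMM21 and RPS20 (0.87, 0.86 and 0.85).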

How the data were processed

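RNA-seq of 18 OVCAR3-KRAB libraries (6 groups of 3) was used. Per the labels and the methods, ribosomal RNA was depleted, TruSeq stranded total RNA libraries were sequenced in pairs, and the authors used Trimmomatic for trimming, HISAT2 for alignment (build hg38) and featureCounts for the counts per gene. The strand and multiple-match settings of the counting and the tool versions are not given in the sources used here. The deposited values are the authors' raw counts, whole numbers without normalization. The authors tested with DESeq2. Of the lines, 2 belonged to a broken record, held 0 counts and were left out, and 5287 of 28277 genes had no count.

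The median total was 17629433.5 counts. Counting error is small beside the spread between replicates, and reads without molecular identifiers are not independent molecules. In edgeR 4.0.16 (R 4.3.3, limma 3.58.1), all 6 groups entered 1 quasi-likelihood fit with robust dispersions and TMM factors from 0.859 to 1.115. filterByExpr (minimum count 10, minimum total 15) kept 14938 genes, and all 5 members passed. Calls required a Benjamini-Hochberg adjusted p under 0.01 together with a log2 fold change past 1 in either direction, as in the study's own analysis. SEs were derived from the fold change and its F statistic. Shares of the total and count ratios were tested by exact permutation (scipy 1.17.1), two-sided. TPM were made from counts and listed lengths over all genes. Scripts were tested on simulated data.

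The members and lists were chosen with earlier results of these data known. Named genes were the members, XIST, the nearest listed gene on each side, the 3 genes most like each member, called genes of the lists (up to 6 in hypoxia and 4 in each KD comparison in normoxia, by fold) and the most abundant short RNAs. Genes of the lists that were not called, and the RPPH1 to RMRP ratio, were picked with their values in view. The sequences of the 7SL copies are not reported here. RefSeq promoter windows were used for PARP2 and CCDC107, the neighbours of 2 of the 5 members. Those of the other neighbours, such as GSTA4, were not examined one by one. Alternatives were DESeq2 1.42.0, other scalings, filters and thresholds, a replicate block and each library left out.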

Additional observations from a re-analysis of the deposited data

How the results depend on the processing

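The count of members called in hypoxia stayed at 1 under DESeq2, 4 other scalings, 2 other filters, a fit of only the groups compared, an adjusted p under 0.05, and without each library in turn (1 to 1). The count called in each KD comparison and in each difference of responses stayed at 0 under the same alternatives (0 to 0). Without a fold limit and at an adjusted p under 0.05, 3 members were called in hypoxia in sgCtl, 4 in sgXIST7, 3 in sgXIST9 and 4 over the guides, and 1 with sgXIST7 in hypoxia, against 51.4, 59, 55.3, 72.2 and 42.3% of all genes. The labels name no shared batch, and the main fit did not pair the samples by number. Of 45 same-numbered pairs, 15 had correlated deviations over 0.1, with a median of 0.045 against -0.028 for other numbers. The hypoxia libraries numbered 3 correlated between guides at 0.38, 0.57 and 0.49. Whether the numbers mark a shared batch was not tested. A replicate block gave 1 member called over the guides, with 1.31 for RPPH1, and changed no other call of the members.

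The values that changed sign were not called. RMRP in hypoxia over the guides was 0.0102 with upper-quartile factors and -0.112 to 0.0224 without single libraries. In sgXIST7 it was -0.0482 with library totals, and in sgCtl -0.362 to 0.0445 without single libraries. With sgXIST7 in normoxia, leaving out libraries gave -0.20 to 0.11 for RN7SL1, -0.354 to 0.00163 for RN7SL2 and -0.0673 to 0.247 for RMRP. In hypoxia it gave -0.166 to 0.0118 for RN7SL1 with sgXIST7, -0.16 to 0.19 for RN7SL1 with sgXIST9 and -0.344 to 0.0155 for RN7SL2 with sgXIST9. Without the 3 hypoxia libraries numbered 3, an alternative chosen after seeing the data, RN7SL1 and RN7SL2 were 0.0576 and 0.0220 with sgXIST7 in hypoxia and RN7SL2 was 0.0666 with sgXIST9. Of values that kept their sign, leaving out single libraries moved RMRP in hypoxia to 0.251 to 0.659 with sgXIST7, the highest without the sgCtl library numbered 3 (adjusted p = 0.0049), and RPPH1 to -0.519 to -0.251 with sgXIST9.

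For the shares over the guides, leaving out single libraries gave log2 differences of 0.49 to 0.60 for RN7SL1, 0.43 to 0.54 for RN7SL2, 0.34 to 0.44 for RN7SK, 1.14 to 1.24 for RPPH1 and -0.22 to -0.12 for RMRP, whose exact p ran from 0.0295 to 0.204. Without the 3 libraries numbered 3, RMRP was at -0.24 (exact p = 0.04). The RN7SL1 to RN7SL2 ratio ran from 0.0428 to 0.0752 (exact p 0.0258 to 0.214) and that of RPPH1 to RMRP from 1.26 to 1.44. Among the RNase P and RNase MRP proteins, library totals gave 0 called higher and 3 lower. Library totals moved the median of all genes by -0.13 over the guides, and the share of higher calls from 55.5 to 39.2% in sgXIST7 hypoxia, from 55.9 to 40.8% for sgXIST7 against sgCtl in hypoxia and from 59.5 to 34.2% for the sgXIST7 response. The cause was not tested. Shared reads between 7SL copies and the lack of a measure of RNA per cell limit what the shares show.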
